A study of Mus musculus with 6 samples.

Results

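The genes described here encode the proteins of the cytosolic ribosome, read here from RNA-seq libraries of sorted mouse liver endothelial cells. Members were taken by symbol: Rpl or Rps followed by digits and, where present, a, x, l, al or l1, with Rplp0, Rplp1, Rplp2 and Rpsa added and names with -ps, most of which are processed pseudogenes, left out. Of 39179 genes in the deposited table, 84 carried such a name. A filter of at least 1 CPM in 3 or more of the 6 libraries kept 74 of them, 45 of the large and 29 of the small subunit, among 12980 genes that passed it in all. CPM is the deposited level, the reads of a gene relative to a scaled library size. The rule does not reach the ribosomal protein genes Rps3a1 and Fau or the ribosome-bound Rack1, whose symbols have another form. It also leaves the 10 matched genes below the filter without a test: Rpl10l, Rpl23a, Rpl29, Rpl35, Rpl38, Rpl39l, Rpl3l, Rps12l1, Rps13 and Rps29.

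The high_iron group consisted of wild-type 129S6/SvEvTac male mice on a purified AIN-93G diet with 10000 ppm carbonyl iron, and the control_iron group of mice of the same strain and sex on that diet with 37 ppm iron as ferric citrate. Both groups began the diet at 3 weeks of age, stayed on it for 4 weeks and were sampled at 7 weeks, with 3 biological replicates each. Sorted cells were positive for CD31 and CD146, which mark endothelium, and negative for CD45, lineage markers, MHCII and CD64. Values given below for livers are those of the cells sorted from them, not of whole liver. The comparison asked how dietary iron loading changes transcripts of these cells.

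Ribosomal proteins pack around the ribosomal RNAs to form a small subunit, which reads the message, and a large subunit, which joins amino acids. The proteins are needed in fixed proportions, and cells usually adjust them together. Their mRNAs begin with a C followed by a run of pyrimidines (the terminal oligopyrimidine or TOP motif), through which the growth kinase complex mTORC1 and the RNA-binding protein LARP1 set how well they are translated, so that protein output can change with little change in mRNA level. The genes also have many intronless copies scattered through the mouse genome, called processed pseudogenes.

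Sequence features of the family are shown first, beginning with its pyrimidine-rich transcription start. Stretches of 30 bases that hold the letters CTTTC, in capitals, within 50 bases of the annotated start are shown for members that are described below, on the strand of the gene (RefSeq, GRCm38.p6). The stretch of Rpl5 ends just before the annotated start and that of Rpsa begins after it, while the others include it.
Rplp2, chr7:141447639-141447668, + strand: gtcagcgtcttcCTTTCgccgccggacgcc
Rpl12, chr2:32961710-32961739, + strand: ccgtcttttcggCTTTCggctcggaggagg
Rps27, chr3:90213630-90213659, - strand: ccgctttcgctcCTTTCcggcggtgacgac
Rpsa, chr9:120127776-120127805, + strand: cggccgcccgtcCTTTCgcgctacccgggg
Rpl5, chr5:107900498-107900527, + strand: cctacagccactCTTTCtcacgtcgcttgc
Rpl4, chr9:64173358-64173387, + strand: caagtgacaagtCTTTCcttttcctgtggg
Rps15a, chr7:118116141-118116170, - strand: ccggcccactctCTTTCtgccatcttccct
A promoter was on record for 57 of the 74 members. The letters CTTTC lay within 50 bases of the annotated start on either strand in 36 of them (63.2%), against 26.2% of 27025 genes with a promoter in the same table. On the gene's own strand the count was 30 of 57 (52.6%), against 14.6% of all genes. An unbroken run of at least 8 C or T letters on the gene's strand was present in the same window in 86.0% of members, against 39.3% of all genes, and the median longest run was 11 bases in members and 7 bases in all genes. The letters CCGGAAG, the core of sites bound by ETS family factors, were found on either strand in 21.1% of members and 5.98% of all genes, and TATAAA in 8.77% of members and 5.77% of all genes. These are matches of letters in a window, not measured binding or mapped starts.

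Members are also nearly identical to some of their pseudogenes. The first 60 coding bases of 3 members are set beside the aligned bases of a pseudogene that had more reads than the member itself (GENCODE M21, GRCm38). Capitals mark a base at which the pair differs.
Rps16: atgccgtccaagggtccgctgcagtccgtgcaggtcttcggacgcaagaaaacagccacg
Rps16-ps2: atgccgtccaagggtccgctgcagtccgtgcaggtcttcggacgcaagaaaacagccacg
Rpl3: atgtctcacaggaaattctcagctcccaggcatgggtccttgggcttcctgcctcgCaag
Rpl3-ps1: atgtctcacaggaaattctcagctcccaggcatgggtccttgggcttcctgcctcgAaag
Rpl31: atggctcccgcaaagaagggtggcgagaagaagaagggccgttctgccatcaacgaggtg
Rpl31-ps8: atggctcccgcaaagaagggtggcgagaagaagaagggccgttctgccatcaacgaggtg
Rps16 lies on chromosome 7 and its copy on chromosome 5, and the stretch was identical in both. Rpl3 on chromosome 15 and its copy on chromosome X differed by C57A, counted from 1 at the A of the start codon with the member's base first. Rpl31 on chromosome 1 and its copy on chromosome 15 were identical over these bases. A short read that lies within an identical stretch cannot be assigned to the gene or to its copy by sequence. The share of each transcript that is found in no other gene is given beside the levels.

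Libraries of these sorted cells held 19265165, 17295321 and 12963510 reads in genes in high_iron replicates 1 to 3, and 18566380, 21663543 and 18008668 in control_iron replicates 1 to 3. A count of 3 reads corresponds to 0.139 to 0.231 CPM. All 12 endothelial markers, which include Pecam1, Cdh5 and Stab2, were tested. They summed to between 22332 and 23011 CPM in high_iron and between 23546 and 26133 CPM in control_iron libraries, with no marker called. The log2 fold change, high_iron over control_iron, was negative for 10 of these 12, against 50.5% of all genes. Every high_iron library lay below every control_iron library in 3 markers (8.44% of all genes) and above in 2 (9.46%). Macrophage markers were higher in high_iron libraries: 3 of 12 passed the test, where 0.832% of all genes were called higher. All 12 had a positive log2 fold change. In 10 of them every high_iron library was above every control_iron library, against 9.46% of all genes. The 12 summed to 253 to 503 CPM in high_iron and 73.9 to 174 CPM in control_iron libraries. Of 11 lymphocyte markers 4 were tested and 1 rose, with sums of 15.4 to 24.8 CPM in high_iron and 3.99 to 8.88 CPM in control_iron libraries. Hepatocyte markers (12 tested, none called) summed to 669 to 1263 CPM in high_iron and 290 to 1254 CPM in control_iron libraries. Their estimates all leaned to high iron: 12 were above 0 and 0 below, where 50.5% of all genes were below. The middle hepatocyte estimate (median) was 0.54 on the log2 scale. In 2 of the 12 the high_iron libraries all exceeded the control_iron libraries (9.46% of all genes), and in 0 they all fell below (8.44%). Stellate markers (7 of 9 tested, none called) summed to 67.9 to 304 CPM in high_iron and 48.7 to 388 CPM in control_iron libraries. Erythroid markers (7 tested, none called) summed to 835 to 4766 CPM in high_iron and 1164 to 3794 CPM in control_iron libraries. Hepatocyte and stellate sums were lowest in replicate 1 and highest in replicate 2 of both groups. Erythroid sums were also highest in replicate 2 of both groups, whereas the order of endothelial and macrophage sums differed between the groups. Platelet markers (4 of 5 tested, none called) summed to 27.5 to 31.4 CPM in high_iron and 20.3 to 33.1 CPM in control_iron libraries, and neutrophil markers (1 of 5 tested, not called) to 1.59 to 8.88 CPM in high_iron and 0.372 to 3.36 CPM in control_iron libraries. The part of these cells in the values of the ribosomal protein genes was not tested.

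The control_iron libraries stood apart from each other on the ribosomal protein genes. The 74 members together held 3138, 2796 and 3548 CPM in high_iron replicates 1 to 3, and 2391, 3415 and 4104 CPM in control_iron replicates 1 to 3. The 3 high_iron sums lay inside the range of the control_iron sums, whose lowest library was replicate 1 and whose highest was replicate 3. As a share of all reads in genes, members took 0.317%, 0.274% and 0.356% in high_iron libraries, and 0.248%, 0.339% and 0.400% in control_iron libraries. The mean sum was 3161 ± 376 CPM in high_iron and 3303 ± 862 CPM in control_iron libraries (SD, n = 3 each), a ratio of 0.957. Without control_iron replicate 1 the ratio was 0.841, and without control_iron replicate 3 it was 1.09. In sorted bulk cells, fewer cells of a type and less RNA per cell cannot be told apart.

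The order of the libraries was shared by most members. Deviations from each gene's mean over the 6 libraries, on the log2(CPM + 1) scale, had a median over members of -0.01, -0.24 and 0.05 in high_iron replicates 1 to 3, and of -0.34, 0.09 and 0.48 in control_iron replicates 1 to 3. Control_iron replicate 3 was the highest of all 6 libraries for 52 members, and control_iron replicate 1 the lowest for 43. High_iron replicate 2 was the lowest for 23, and high_iron replicate 3 the highest for 10. Control_iron replicate 3 exceeded control_iron replicate 1 for 65 of 74 members (87.8%), against 49.3% of all genes tested, with a median ratio of 1.79 over members and a ratio of at least 1.5 in 52. The SD among control_iron libraries exceeded that among high_iron libraries for 68 members (91.9%), against 66.3% of all genes. For 37 of 74 members all 3 high_iron libraries fell between the lowest and the highest control_iron library, against 23.5% of all genes.

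**Figure D1:**
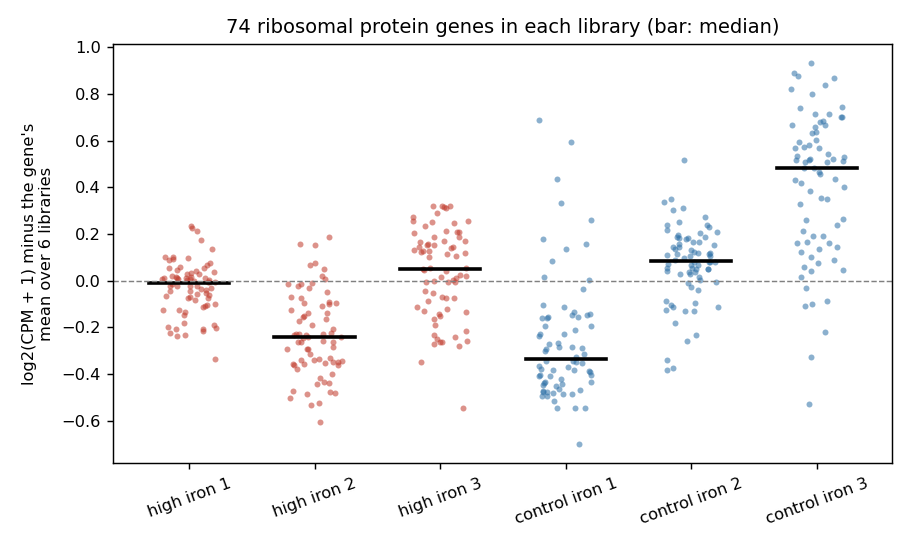
Each point is one of 74 ribosomal protein genes, plotted by library as log2(CPM + 1) minus the gene's mean over 6 libraries; high_iron libraries are red, control_iron libraries blue, and bars are medians. The medians of the high_iron libraries run from -0.24 to 0.05, between control_iron replicate 1 at -0.34 and control_iron replicate 3 at 0.48.

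No ribosomal protein gene passed the test between the diets. With limma on log2(CPM + 1) and Benjamini-Hochberg adjustment over all genes tested, 0 of 74 members had an adjusted p below 0.05, where 1.02% of all genes did (0.832% higher and 0.193% lower on high iron). The count was also 0 with edgeR's quasi-likelihood test (0.863% of all genes called) and with DESeq2 (3.27%). At an unadjusted p below 0.05 there was 1 member in limma (1.35% of members), against 12.1% of all genes. The log2 fold change, high_iron over control_iron on the log2(CPM + 1) scale, was negative for 59 members (79.7%), against 50.5% of all genes. Its median was -0.16 over members and -0.00 over all genes tested. The median by subunit was -0.16 over large subunit genes (35 negative, 10 positive) and -0.16 over small subunit genes (24 negative, 5 positive).

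The direction of that median rested on 1 library, control_iron replicate 3, and its size on others. Without control_iron replicate 3 it was 0.05, with 25 of 74 members negative. Without control_iron replicate 1 it was -0.33, with 68 negative and 18 members (24.3%) at an unadjusted p below 0.05, against 20.7% of all genes in that fit; 0 members were called, and the lowest adjusted p in limma was 0.107. Without high_iron replicate 2 it was -0.09. The intervals bound what 3 against 3 libraries could leave unseen on the log2(CPM + 1) scale only. The added 1 shrinks fold changes of genes with few reads, so larger ratios of CPM in those genes are not bounded. The 95% confidence intervals of 73 members contained 0, those of 65 lay within a log2 fold change of -1 to 1, and bounds over all members ran from -1.22 to 0.78.

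**Figure D2:**
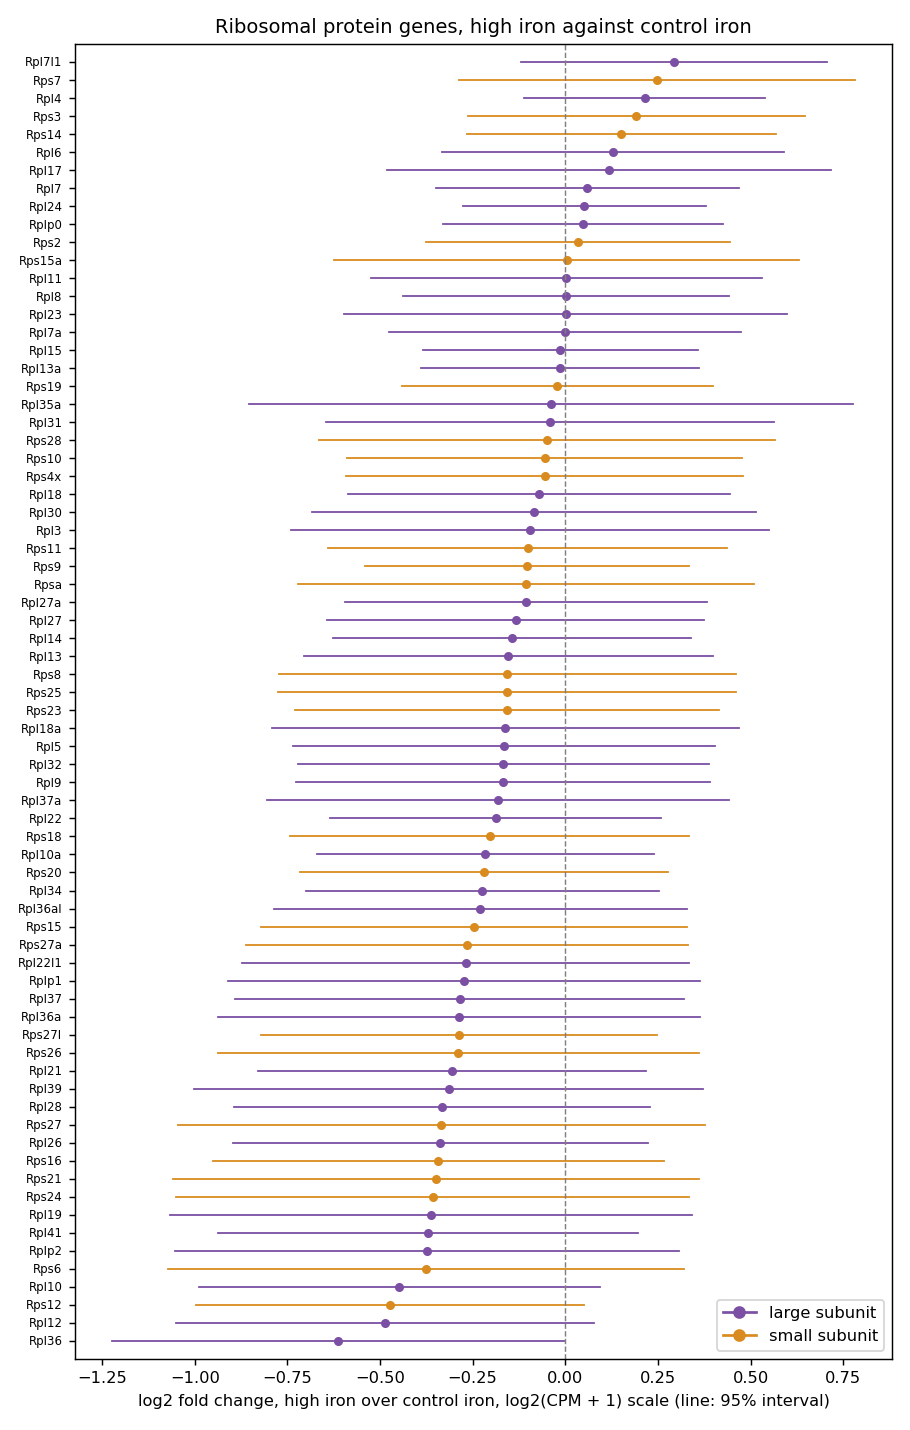
Points give the log2 fold change of 72 of the 74 ribosomal protein genes, high_iron over control_iron on the log2(CPM + 1) scale (limma), with lines for the 95% confidence interval and colours for the subunit. Estimates run from -0.61 for Rpl36 to 0.29 for Rpl7l1, most are negative, and the interval of Rpl36 alone among those drawn leaves out 0.

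The lowest estimates belonged to genes with few reads. Rpl36 (chr17:56613416-56614243, GRCm38), a large subunit protein, had 2.26, 1.65 and 2.46 CPM in high_iron libraries, against 2.49, 3.85 and 5.30 CPM in control_iron libraries. The groups did not overlap, but high_iron replicate 3 and control_iron replicate 1 were nearly level. Its log2 fold change was -0.61 (SE 0.27, 95% interval -1.22 to -0.00), with an unadjusted p of 0.0495 and an adjusted p of 0.41 in limma. Rps12, a small subunit protein of the head region, had 1.28, 0.943 and 1.08 CPM in high_iron livers, against 2.34, 1.67 and 1.77 CPM in control_iron livers, a log2 fold change of -0.47 (limma adjusted p = 0.45). Its control_iron libraries were all higher, with replicate 1 the highest. Rpl10, a late-joining large subunit protein near the catalytic centre, had 7.08, 5.01 and 5.69 CPM on high iron, against 6.18, 8.96 and 10.5 CPM on control iron (log2 fold change -0.45, limma adjusted p = 0.49), and its groups overlapped. Rps6, the small subunit protein phosphorylated by S6 kinases downstream of mTORC1, had 0.616, 0.590 and 1.23 CPM in high_iron libraries, against 2.29, 1.35 and 0.626 CPM in control_iron libraries. Replicate 1 was its highest control and replicate 3 its lowest, unlike in most members, and its log2 fold change of -0.38 was not called (limma adjusted p = 0.64). Few 50-base words of these transcripts occur in no other gene: 18.9% in Rpl36, 14.6% in Rps12, 14.6% in Rpl10 and 15.4% in Rps6. Their reads are therefore uncertain. Rps6-ps4, with 100% coding identity to Rps6, averaged 6.62 CPM (log2 fold change 0.19), against 1.12 CPM for Rps6. The part of this copy in the values of Rps6 was not tested. In all, 5 members had every high_iron library below every control_iron library (Rpl36, Rpl12, Rps12, Rpl21 and Rpl34), 6.76% of members against 8.44% of all genes, and 0 had every high_iron library above, against 9.46% of all genes.

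The highest estimates included some of the most abundant members. Rpl4, which lines the exit tunnel of the large subunit, had 332, 314 and 390 CPM in high_iron libraries, against 262, 336 and 296 CPM in control_iron libraries (log2 fold change 0.21, 95% interval -0.11 to 0.54, limma adjusted p = 0.58). The groups overlapped through control_iron replicate 2. Rps3, a protein of the mRNA entry channel of the small subunit, had 433, 372 and 507 CPM on high iron, against 278, 439 and 449 CPM on control iron (log2 fold change 0.19, limma adjusted p = 0.71); it was at -0.03 without control_iron replicate 1. Rps14 of the small subunit platform averaged 186 ± 28.3 CPM in high_iron and 169 ± 38.8 CPM in control_iron livers (SD, n = 3 each; log2 fold change 0.15, limma adjusted p = 0.75), and was likewise at -0.03 without control_iron replicate 1. Rps7, whose protein is also needed to process the small subunit RNA, had 3.18, 3.48 and 4.31 CPM in high_iron livers, against 2.81, 2.28 and 3.76 CPM in control_iron livers (log2 fold change 0.25, limma adjusted p = 0.69). For both genes the groups overlapped.

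Members of the P-stalk, the flexible arm of the large subunit that recruits elongation factors, had different estimates from each other. Rplp0, the base of the stalk, had 61.1, 55.5 and 70.9 CPM in high_iron libraries, against 49.0, 63.4 and 70.0 CPM in control_iron libraries. The groups overlapped almost fully, with a log2 fold change of 0.05 (SE 0.17). Rplp1, one of the acidic arm proteins, had 82.1, 76.2 and 103 CPM on high iron, against 67.1, 101 and 169 CPM on control iron (log2 fold change -0.27, SE 0.28). Rplp2, its partner, had 22.5, 17.3 and 22.8 CPM on high iron, against 16.8, 26.3 and 44.9 CPM on control iron (log2 fold change -0.37, SE 0.30). In both arm genes control_iron replicate 3 was more than 2.5 times control_iron replicate 1. Rpl12, which sits at the stalk base, had 2.62, 2.24 and 2.61 CPM in high_iron livers, against 2.70, 4.09 and 5.18 CPM in control_iron livers, with no overlap but a limma adjusted p of 0.47 (log2 fold change -0.49).

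Rpl5 and Rpl11 travel with the 5S ribosomal RNA and, when ribosome assembly is disturbed, bind Mdm2 and stabilise p53. Rpl5 had 4.06, 4.13 and 2.15 CPM in high_iron libraries, against 4.21, 3.76 and 3.64 CPM in control_iron libraries (log2 fold change -0.17, 95% interval -0.73 to 0.41). The high_iron group was split, with replicate 3 well below the rest. Rpl11 had 4.21, 4.07 and 3.46 CPM on high iron, against 2.86, 4.69 and 4.33 CPM on control iron (log2 fold change 0.00, 95% interval -0.52 to 0.53), and the groups overlapped. Reads of Rpl5 are uncertain, since 6.16% of its 50-base words are unique and 26.7% of its exonic bases overlap Fam69a. Rpsa, the small subunit protein also known as the laminin receptor, averaged 4.24 ± 0.756 CPM in high_iron and 4.80 ± 1.88 CPM in control_iron livers (log2 fold change -0.11). Rps27a, made as a fusion with ubiquitin, averaged 2.21 ± 0.635 CPM in high_iron and 2.88 ± 0.957 CPM in control_iron livers (SD, n = 3 each; log2 fold change -0.27). Of 18 genes whose human counterparts are linked to Diamond-Blackfan anaemia, an inherited failure of red cell production, 16 were members with a test. Of these, 0 were called, where 1.02% of all genes were. Their median was -0.05 and 14 were negative, against 59 of all 74 members and 50.5% of all genes.

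Some ribosomal proteins have a paralog that can take their place in the ribosome. Rpl7l1, whose human counterpart is known from precursors of the large subunit rather than mature ribosomes, had 82.1, 87.0 and 85.0 CPM in high_iron libraries, against 68.9, 89.9 and 52.7 CPM in control_iron libraries. The high_iron libraries were close together, the control_iron libraries were spread, and replicate 3 was the lowest of them, unlike in most members. Its log2 fold change of 0.29 was the highest of all members and was not called (95% interval -0.12 to 0.71, limma adjusted p = 0.54). Its parent Rpl7 averaged 47.1 ± 3.27 CPM on high iron and 45.9 ± 10.2 CPM on control iron (SD, n = 3 each; log2 fold change 0.06). Rps27l, a paralog induced by p53, averaged 42.2 ± 5.33 CPM in high_iron and 53.7 ± 19.4 CPM in control_iron livers (SD, n = 3 each; log2 fold change -0.29). Its parent Rps27 was listed at 1.13 ± 0.582 CPM in high_iron and 1.70 ± 0.875 CPM in control_iron livers; 1.35% of its 50-base words are unique. Rpl22, an RNA-binding large subunit protein, averaged 58.5 ± 5.90 CPM on high iron and 68.3 ± 19.5 CPM on control iron (log2 fold change -0.19). Its paralog Rpl22l1 averaged 9.23 ± 1.07 CPM on high iron and 11.9 ± 5.06 CPM on control iron (SD, n = 3 each; log2 fold change -0.27). Rpl36al averaged 10.9 ± 1.14 CPM in high_iron and 13.3 ± 4.32 CPM in control_iron livers, and its parent Rpl36a 1.36 ± 0.644 CPM in high_iron and 1.87 ± 0.699 CPM in control_iron livers (SD, n = 3 each).

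The largest difference among the paralogs was in a gene outside the naming rule. Rps4l, listed in the table as Rps4y2 and a paralog of the X-linked Rps4x, had 7.65, 8.02 and 8.38 CPM in high_iron libraries, against 14.2, 16.3 and 11.96 CPM in control_iron libraries. The groups did not overlap, and control_iron replicate 3 was the lowest control rather than the highest. The log2 fold change was -0.74 (SE 0.19, limma unadjusted p = 0.00336); its adjusted p was 0.13 in limma and it passed the threshold in DESeq2 alone (log2 fold change -0.82). Rps4x itself averaged 13.6 ± 3.33 CPM in high_iron and 14.2 ± 3.37 CPM in control_iron livers (SD, n = 3 each; log2 fold change -0.06). The paralogs Rpl3l and Rpl39l were below 0.27 CPM in every library, and Rpl10l was at 0 reads in all 6, which allows up to 0.139 to 0.231 CPM. Of their parents, Rpl3 was listed at 1.68 ± 0.324 CPM in high_iron and 1.96 ± 1.05 CPM in control_iron livers (SD, n = 3 each). Its reads are uncertain, since 14.4% of its 50-base words are unique. Rpl39 averaged 14.7 ± 2.64 CPM in high_iron and 19.7 ± 9.42 CPM in control_iron livers (SD, n = 3 each). Rpl26l1 was not analysed here; its parent Rpl26 averaged 32.04 ± 4.99 CPM in high_iron and 42.3 ± 15.4 CPM in control_iron livers.

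**Figure D3:**
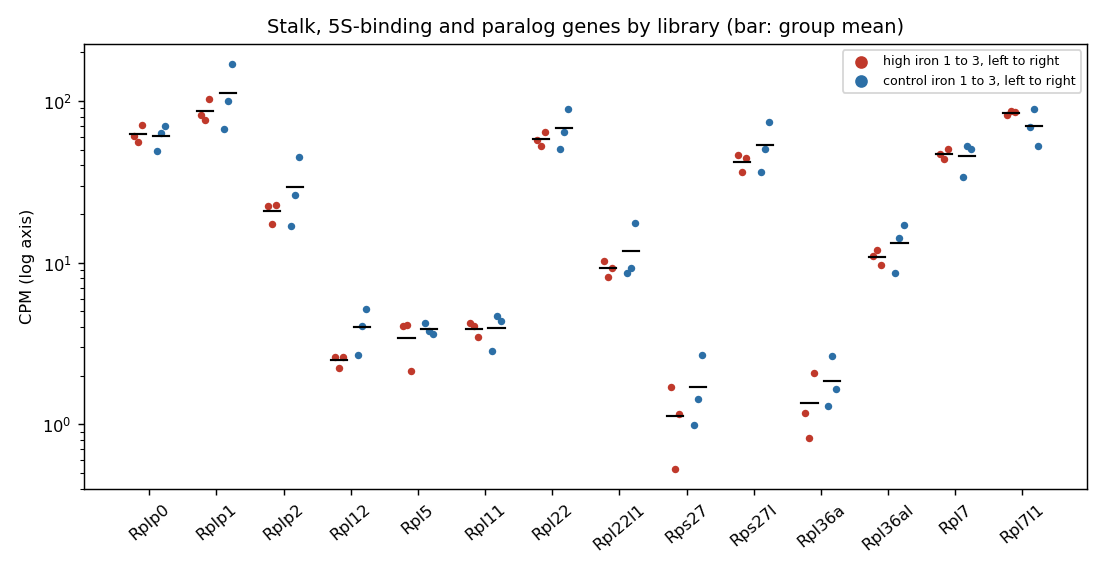
CPM per library on a log axis for stalk, 5S-binding and paralogous ribosomal protein genes, with high_iron libraries in red left of control_iron libraries in blue, replicates 1 to 3 from left to right and bars at group means. In Rplp1, Rplp2 and Rps27l control_iron replicate 3 is the highest control, whereas Rpl7l1 is lowest there at 52.7 CPM and its high_iron points sit between 82.1 and 87.0 CPM.

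Levels of the members, compared per gene length as RPKM (CPM divided by the gene length in kilobases), spanned a wide range. Mean RPKM over the 6 libraries ran from 0.427 for Rpl21 to 350 for Rpl8, an 819-fold span, with a median of 8.95. Rpl8, at the catalytic centre of the large subunit, averaged 350 ± 62.3 RPKM (SD over 6 libraries), Rpl32 of the large subunit 277 ± 78.5 RPKM, Rpl4 228 ± 30.4 RPKM and Rplp1 203 ± 74.6 RPKM. These 4 had the highest levels, and their ranges over the libraries overlapped. At the low end Rpl21 averaged 0.427 ± 0.103 RPKM, Rps6 0.697 ± 0.414 RPKM, Rps15a 0.713 ± 0.197 RPKM and Rpl5 0.918 ± 0.193 RPKM. Neighbours in this order overlapped too. Deposited gene lengths were 9620 bases for Rps15a, 3987 for Rpl5, 3419 for Rpl21 and 1601 for Rps6, against 856 for Rpl8. Before division by length, Rps15a averaged 6.86 CPM and Rps6 1.12 CPM. The part of these lengths in the span of RPKM was not tested. There were 9 members above 100 RPKM and 15 below 2 RPKM, although ribosomes hold most of these proteins in equal numbers. The 5 members with the most CPM supplied 46.0%, 46.9% and 47.9% of the summed CPM in high_iron libraries, and 43.7%, 44.6% and 39.99% in control_iron libraries.

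Median levels were lower in members with less unique sequence. For each member one protein-coding transcript was cut into 50-base words, and the share of words found in no other gene of GENCODE M21 was counted. The median share was 50.9%, and 35 members were under 50%. The median level was 4.18 RPKM in the 17 members with a share under 25%, 9.67 RPKM in the 44 between 25% and 75%, and 22.6 RPKM in the 13 at 75% or over. No member of the lowest class exceeded 16.5 RPKM, whereas the highest class reached 350 RPKM but also held Rps15a at 0.713 RPKM. Both values of Rps15a depend on the lengths used. Its transcript cut into words had 5179 bases and its deposited gene length was 9620 bases, against a median gene length of 1421 bases over members. Across the 74 genes, which share libraries, Spearman's rho between share and level was 0.47. The log2 fold change followed the share less closely: its median was -0.20, -0.14 and -0.10 in the low, middle and high class. Whether reads that match several genes were dropped in counting is not given in the sources used here, so the level of a member with a low share was taken as uncertain.

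**Figure D4:**
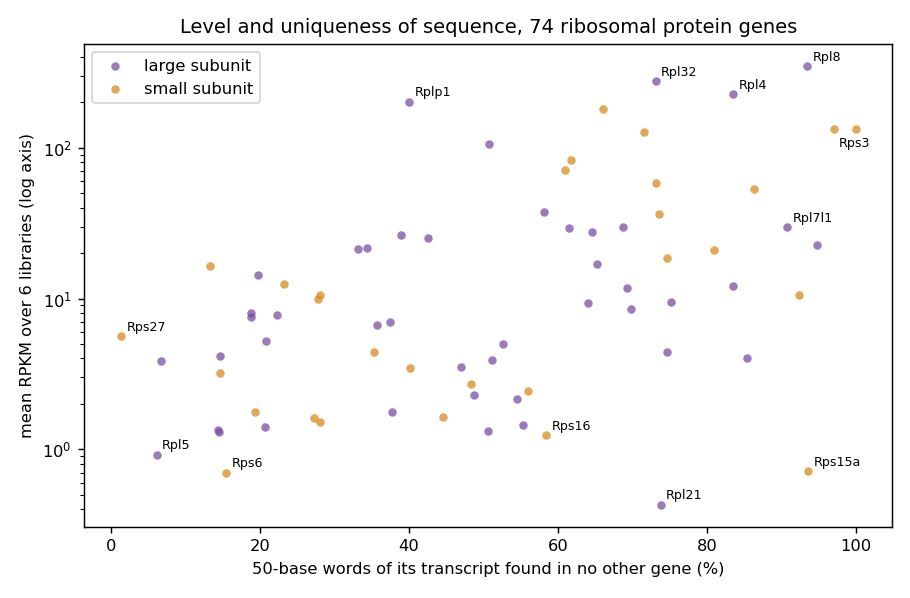
Mean RPKM over 6 libraries (log axis) of 74 ribosomal protein genes against the percentage of 50-base words of the transcript found in no other gene. Members with under 25% unique words stay at or below 16.5 RPKM, while levels above 100 RPKM occur at 40% unique words and more.

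Rows with a -ps name carried reads with the same pattern over libraries. Of 222 such rows, 37 passed the filter. GENCODE M21 lists 34 of the 37 as processed pseudogenes and 2, Rpl9-ps6 and Rpl10-ps3, as protein coding, and 1 has no entry. Of the 37, 0 were called (1.02% of all genes) and 27 were negative (50.5% of all genes). The median log2 fold change was -0.22. Together all of these rows held 431, 355 and 467 CPM in high_iron libraries, and 333, 464 and 618 CPM in control_iron libraries. As in the members, control_iron replicate 1 was lowest and replicate 3 highest. Of the 35 tested -ps rows whose parent was a tested member, 12 had a higher mean CPM than the parent. Rps16-ps2, the copy printed above, averaged 48.9 CPM over the 6 libraries, against 1.10 CPM for Rps16. Rpl3-ps1 averaged 56.6 CPM, against 1.82 CPM for Rpl3, and Rpl31-ps8 averaged 23.3 CPM, against 2.88 CPM for Rpl31. Coding identity to the parent was 100% for Rps16-ps2, 99.8% for Rpl3-ps1 and 94.3% for Rpl31-ps8. Reads counted to a member and to its copy could not be told apart by these counts.

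In 9 members control_iron replicate 3 did not exceed replicate 1, among them Rps6, Rpl3, Rps12, Rpl7l1, Rpl21, Rpl10a, Rpl5 and Rpl34. Of these, 7 averaged under 10 CPM. The excess of control_iron replicate 3 over replicate 1 was present at both levels of expression: its median ratio was 1.87 in the 43 members over 10 CPM and 1.70 in the 31 under 10 CPM. The median log2 fold change between diets was -0.14 in the members over 10 CPM and -0.16 in those under 10 CPM.

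Other short genes differed between the libraries as well. Non-member genes under 1000 bases (933 genes) had median deviations of -0.01, -0.19 and -0.02 in high_iron replicates 1 to 3, and of -0.17, 0.10 and 0.33 in control_iron replicates 1 to 3, and a median log2 fold change of -0.15. Control_iron replicate 3 was their highest library, and high_iron replicate 2 and control_iron replicate 1 their lowest. Genes of at least 1000 and under 2000 bases, the class that holds the members' median gene length of 1421 bases, deviated less, with medians of 0.00, -0.09 and 0.03 in high_iron and of -0.10, 0.10 and 0.08 in control_iron replicates 1 to 3, so that control_iron replicate 2 was their highest library. The median log2 fold change was -0.05 for that class, 0.03 for those of at least 2000 and under 4000 bases and 0.01 for those of 4000 bases and over. Among the 74 members, Spearman's rho between gene length and log2 fold change was 0.38, a description over genes that share 6 libraries. The part of gene length in the members' values was not tested.

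Genes that work with the ribosome gave no call either. Translation elongation factors (9 tested), initiation factors (38), other TOP mRNAs (19) and RNA polymerase I genes and their factors (21) each had 0 called. Ribosome assembly factors (63), mTORC1 and TOP regulators (21) and ribosome collision and rescue factors (15) had 0 called as well. Of all genes tested, 1.02% were called. Medians of these lists, in the order given, were -0.04, -0.03, -0.01, -0.13, 0.02, -0.05 and -0.08 on the log2 scale. Every high_iron library was above every control_iron library in 3 of the 9 elongation factors (9.46% of all genes) and below in 0 (8.44%). Eef1a1, the factor that brings aminoacyl-tRNA to the ribosome and itself a TOP mRNA, had 428, 457 and 550 CPM in high_iron libraries, against 325, 390 and 272 CPM in control_iron libraries. Eef2, which moves the ribosome along the message, had 622, 725 and 851 CPM on high iron, against 558, 579 and 509 CPM on control iron. In both genes every high_iron library was above every control_iron library, and control_iron replicate 3, the highest library for most ribosomal protein genes, was the lowest. Neither passed the test (log2 fold changes 0.55 and 0.41, limma adjusted p = 0.21 and 0.33). Eif3h, a subunit of the initiation factor that binds the small subunit, averaged 102 ± 14.0 CPM on high iron and 73.5 ± 10.3 CPM on control iron (SD, n = 3 each; log2 fold change 0.47, limma adjusted p = 0.26), and Eif3l of the same factor averaged 115 ± 3.52 CPM on high iron and 89.3 ± 16.2 CPM on control iron. Rack1, the ribosome-bound scaffold listed as Gnb2l1, followed the members, with 263, 224 and 273 CPM on high iron and 212, 285 and 341 CPM on control iron.

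Among genes that make and survey ribosomes, the smallest unadjusted p-values pointed in both directions and none passed after adjustment. Polr1b and Polr1e encode subunits of RNA polymerase I, which transcribes ribosomal RNA. Polr1b averaged 12.6 ± 0.292 CPM in high_iron and 8.52 ± 2.07 CPM in control_iron livers (log2 fold change 0.54), whereas Polr1e averaged 3.50 ± 0.478 CPM in high_iron and 6.49 ± 2.21 CPM in control_iron livers (log2 fold change -0.70; limma adjusted p = 0.36 and 0.34). Rrp12, a factor for export of pre-ribosomes, had 5.60, 6.19 and 7.38 CPM on high iron, against 7.43, 2.14 and 2.11 CPM on control iron. Its control_iron replicate 1 stood above both other controls, and without that library it was called (log2 fold change 0.76 with it and 1.24 without it). Nmd3, the export adaptor of the large subunit, averaged 8.73 ± 0.743 CPM on high iron and 12.2 ± 2.26 CPM on control iron (log2 fold change -0.42). Rragc and Lamtor2 help bring mTORC1 to the lysosome. Rragc averaged 153 ± 14.6 CPM in high_iron and 115 ± 14.8 CPM in control_iron livers (log2 fold change 0.41, limma adjusted p = 0.27), and Lamtor2 averaged 71.9 ± 6.85 CPM in high_iron and 98.3 ± 34.7 CPM in control_iron livers (log2 fold change -0.39, limma adjusted p = 0.53). Pelo and Nemf act on stalled ribosomes. Pelo averaged 61.7 ± 6.33 CPM on high iron and 76.6 ± 12.1 CPM on control iron, and Nemf 60.2 ± 1.44 CPM on high iron and 71.8 ± 5.05 CPM on control iron (SD, n = 3 each; limma adjusted p = 0.47 for both).

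Mitochondrial ribosomal proteins, which translate the mitochondrial genome, had a median log2 fold change of -0.24 over 74 tested genes. Of these, 66 were negative (89.2%, against 50.5% of all genes) and 0 were called (1.02% of all genes). At an unadjusted p below 0.05 there were 8 (10.8%), against 12.1% of all genes. Their median deviations were -0.04, -0.25 and -0.08 in high_iron replicates 1 to 3, and -0.15, 0.19 and 0.28 in control_iron replicates 1 to 3. Control_iron replicate 1 was thus below high_iron replicates 1 and 3. Mrps11 had 28.1, 22.9 and 29.9 CPM in high_iron libraries, against 32.8, 36.6 and 48.2 CPM in control_iron libraries, without overlap (log2 fold change -0.51, limma adjusted p = 0.31), and Mrpl54 averaged 28.1 ± 3.25 CPM on high iron and 39.2 ± 4.93 CPM on control iron (SD, n = 3 each; log2 fold change -0.46). All 7 tested host genes of small nucleolar RNAs were negative, where 50.5% of all genes were. Their median was -0.52, and 0 were called (1.02% of all genes). Their median deviations were 0.12, -0.50 and -0.17 in high_iron replicates 1 to 3, and 0.13, -0.12 and 0.69 in control_iron replicates 1 to 3. Snhg1, a host gene that is itself a TOP transcript, averaged 8.76 ± 2.85 CPM on high iron and 15.2 ± 5.23 CPM on control iron (log2 fold change -0.72, limma adjusted p = 0.35), and its groups overlapped. Epb41l4aos, listed as 2410004N09Rik, averaged 1.80 ± 0.272 CPM on high iron and 3.72 ± 1.04 CPM on control iron (SD, n = 3 each; log2 fold change -0.74). Introns of several ribosomal protein genes also hold such RNAs, and the counts give no separate view of them.

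**Figure D5:**
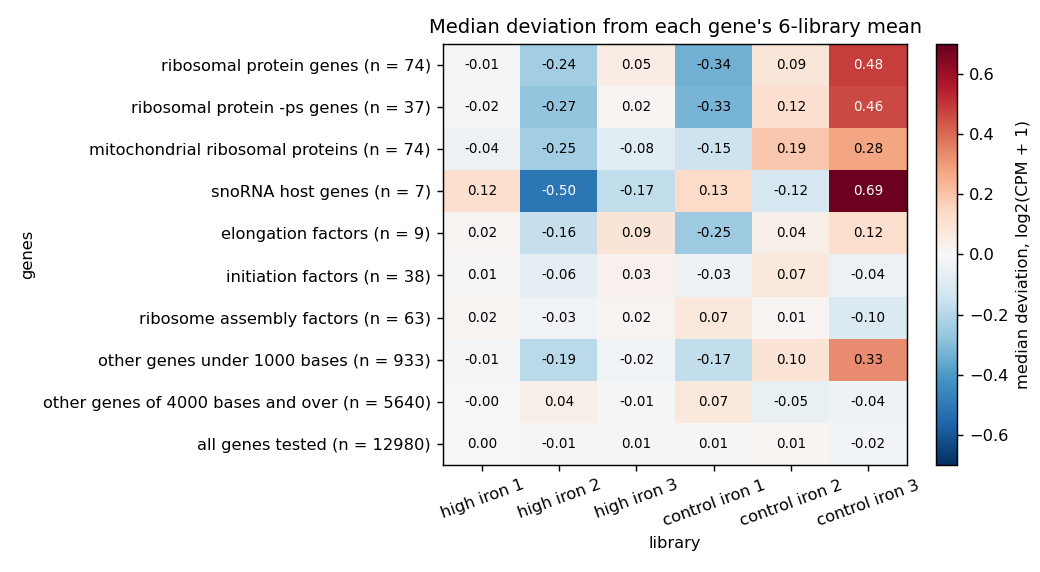
Median deviation of log2(CPM + 1) from each gene's 6-library mean, for gene lists (rows, with the number tested) in high_iron (left) and control_iron libraries (right), red above and blue below the mean. Ribosomal protein genes and the rows with a -ps name share the same order (-0.34 and -0.33 in control_iron replicate 1, 0.48 and 0.46 in control_iron replicate 3), and the median over all genes tested stays between -0.02 and 0.01.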

How the data were processed

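RNA was isolated from the sorted cells with a PicoPure kit and made into cDNA libraries with a SMARTer Ultra Low Input kit, which does not mark strand, per the labels' protocols. STAR, HTSeq and edgeR, with build mm10, are named without versions in the submitters' processing notes; how reads matching several genes were counted is not given there. The authors deposited CPM values, a normalized signal of reads over a scaled library size, and RPKM values, which equal CPM divided by the deposited gene length in kilobases. All CPM values above 0 were whole multiples of a per-library step within 0.001 read (100%), so reads were recovered. Libraries of a group differed by far more than sampling noise.

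The members and gene lists were chosen with earlier results of these data known. limma 3.58.1 (R 4.3.3) was run on log2(CPM + 1) with group as the only term and a variance trend, two-sided, over genes with at least 1 CPM in 3 or more libraries. Alternatives were pseudocounts of 0.1 and 0.5, other filters and scalings, edgeR 4.0.16 and DESeq2 1.42.0 on recovered reads, each library left out, and a replicate block. The procedure was tested on simulated reads. Floors of 3 reads cover counting error only.

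Named members were the 5 highest and 5 lowest estimates, the 4 most and 4 least abundant, the stalk, 5S, Rpsa and Rps27a genes, paralogs with parents, and the 2 genes with the smallest p in each translation list. Members named for their pseudogenes, for lack of overlap, for the order of control libraries or for unique sequence were chosen after their values were seen. Positions and transcripts came from GENCODE M21 (GRCm38, which is mm10; 37607 of 39179 identifiers matched), and promoters from RefSeq GRCm38.p6. Protein sequences were not used here. Results of a few genes are not reported here, in the text or by name in the plots.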

Additional observations from a re-analysis of the deposited data

How the results depend on the processing

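No ribosomal protein gene was called under any of the 16 alternatives. Over all genes, calls numbered 133 in the main analysis, 34 with no filter on low values, 424 with DESeq2 and 402 (319 higher, 83 lower) with the replicate block, and ran from 27 to 183 with one library left out. Same-numbered libraries of the diets deviated together with correlations of 0.13, 0.32 and 0.06, against -0.39 to 0.20 for libraries of different numbers. These values do not settle whether the numbers pair the samples. Under the block the members' median stayed at -0.16. That median ran from -0.33 to 0.05 with one library left out and was -0.24 with edgeR and -0.22 with DESeq2. The ratio of summed CPM ran from 0.841 to 1.09. In the translation lists, 0 genes were called in the main analysis and 0 to 1 with one library left out; the one was Rrp12 without control_iron replicate 1 (log2 fold change 1.24), and the cause was not tested. Of 800 alternative values for 51 named genes, 798 kept their direction or their small size and their side of the threshold, and 2 newly passed it (Rrp12, and Rps4l with DESeq2). No named gene was called in the main analysis, so no call could be lost or reversed. Small estimates that changed sign were counted as kept, as for Rps3 and Rps14 without control_iron replicate 1. At 3 reads, depth limits values to 0.139 to 0.231 CPM, counting error only.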
